A study of Apis mellifera with 5 samples.

Results

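Glucose oxidase and glucose dehydrogenase are represented here by 5 unigenes of the honey bee, out of 20522 unigenes with a read in at least 1 of 5 hypopharyngeal gland (HG) libraries. A unigene is an assembled transcript sequence. BP539841 was called glucose oxidase in the study's text. The other 4 (TC13216, TC15077, NP9552746 and TC21807) had glucose dehydrogenase of an ant as their best protein match in the deposited annotation, and they are called the GDH unigenes below. In these libraries the 4 GDH unigenes had their highest levels on day 16, whereas BP539841 had a single high value on day 12.

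Glucose oxidase takes glucose and oxygen to gluconolactone and hydrogen peroxide. In worker bees the enzyme is made in the HGs and added to honey and larval food, where the peroxide and the acid formed from the lactone hold back microbes. Glucose dehydrogenase carries out the same oxidation of glucose but passes the electrons to an acceptor other than oxygen, so that no peroxide is made. Both belong to the GMC (glucose-methanol-choline) family of flavin enzymes, which has many similar members in insects. In Drosophila, glucose dehydrogenase is known for its part in the emergence of the adult from the pupal case and in sperm storage.

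The bees were full sisters of Apis mellifera carnica Pollmann, the daughters of a queen inseminated with the sperm of a single drone. The labels name no treatment, and the workers were taken at 5 ages, on day 3, 6, 9, 12 or 16 of adult life. Each age is 1 library, made from RNA pooled from 30 bees, and differences between ages therefore have no check by replicates. The sample labels name the tissue as HGs, whereas the design text of the series speaks of heads. In bulk RNA, fewer cells of a type and less RNA per cell cannot be told apart.

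Unique reads, that is, reads that match 1 unigene alone, were fewest in the day 9 library and most in the day 16 library. All counts below are of these. By the study's own counts, total reads were nearly equal between libraries. The share that matched more than 1 position was smallest on day 3 and largest on day 9. Levels scaled to unique reads leave that share out, which bears on ratios between ages. The study's RNA integrity number was highest on day 6 and lowest on day 16. Reads were assigned to between 17065 and 18378 unigenes per library. TC24109, named mrjp2 in the study (a royal jelly protein and a main product of the gland), took 2.53%, 5.39%, 12.4%, 12.9% and 6.00% of the reads from the youngest library to the oldest. The median log2 ratio of RPKM (reads scaled to the length of the unigene and to the library's unique reads) over 15538 unigenes was -0.65 for day 12 against day 3 and -0.50 for day 16 against day 3. Scaling with TMM factors would add 0.60 and 0.47 to every log2 ratio of these 2 comparisons.

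Each pair of libraries was compared with the test of Audic and Claverie on the unique reads, with the false discovery rate (FDR) taken over all unigenes with a read in either library. A unigene was called a DEG (differentially expressed gene) where the FDR was 0.001 or less and the log2 ratio was 1 or more in size. The test compares the reads of 2 libraries, not the ages. Intervals are 95% exact intervals of counting error, and they hold no spread between pools, since each age is 1 library. Copies made by PCR are not independent molecules, so the intervals can be too narrow even for counting error.

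TC13216, 1991 bases long, was the most abundant GDH unigene at every age. From the youngest library to the oldest it had 26, 38, 46, 138 and 347 unique reads. Its levels were 7.69, 12.6, 19.1, 51.6 and 96.0 RPKM. Each library was higher than the one before, although the neighbouring pairs of day 3 with day 6 and of day 6 with day 9 had intervals of the ratio that included equality. The steps from day 9 to day 12 and from day 12 to day 16 lay beyond counting error. On day 16 the level was 12.5-fold that of day 3 (95% interval 8.37 to 19.4), and the unigene was called up-regulated (log2 ratio 3.64, FDR 3.58e-66 in the Audic and Claverie test). It was also called up-regulated on day 12 against day 3 (2.75) and against day 9 (1.43), and on day 16 against day 9 (2.33). From day 12 to day 16 the log2 ratio was 0.90 (0.61 to 1.19), which is under the ratio threshold.

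TC15077, 2099 bases long, shares its best match with TC13216, a glucose dehydrogenase of the ant Camponotus floridanus. Its reads numbered 6, 18, 27, 38 and 57 from day 3 to day 16, which are 1.68, 5.65, 10.7, 13.5 and 14.96 RPKM. Most of its gain came early: the step from day 3 to day 6 had a log2 ratio of 1.75 (0.35 to 3.37), whereas that from day 12 to day 16 was 0.15 (-0.47 to 0.78). Day 9, day 12 and day 16 could not be ordered beyond counting error by their neighbouring pairs. The unigene was called up-regulated against day 3 on day 9 (log2 ratio 2.66), day 12 (3.00) and day 16 (3.15, interval 1.94 to 4.66). The calls rest on the 6 reads of day 3. Against day 6 the log2 ratio of day 16 was 1.41 (0.62 to 2.26) with an FDR of 0.00183 in the Audic and Claverie test, and the unigene was called on no day.

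NP9552746, 1413 bases long, is a predicted transcript described as similar to glucose dehydrogenase, with its best match in the ant Harpegnathos saltator. Only 3, 5, 4 and 11 reads fell on it in the first 4 libraries, against 45 on day 16. In RPKM these are 1.25, 2.33, 2.34, 5.79 and 17.5. No neighbouring pair up to day 12 could be ordered, and day 16 was above day 12 with a log2 ratio of 1.60 (0.62 to 2.70), although its FDR of 0.00713 in the Audic and Claverie test did not pass. The unigene was called up-regulated on day 16 against day 3, with a ratio of 14.0 (4.50 to 70.6), a width that reflects the 3 reads in the earlier library. It was also called on day 16 against day 9 (log2 ratio 2.90). The study singled out NP9552746 and TC21807 for day 16 on these libraries, so their rank on that day is not independent evidence.

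TC21807 is the longest, with 4064 bases, and had the lowest level of the 4 on every day from day 6 on. Its annotation lists hexose metabolism, pupal development and sperm competition as processes. From day 3 to day 16 its reads numbered 10, 8, 7, 16 and 44. The levels of days 3, 6 and 9 lay between 1.30 and 1.45 RPKM and could not be told apart, day 12 had 2.93 and day 16 had 5.96. It was called up-regulated on day 16 against day 3 (ratio 4.11, 2.04 to 9.17). Against day 9 the log2 ratio was 2.06 (0.90 to 3.46) with an FDR of 0.00171 in the Audic and Claverie test, which did not pass.

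BP539841 is 376 bases long, and its course differed from the GDH unigenes. Its reads numbered 81, 61, 66, 272 and 77 from the youngest library to the oldest. The levels were 126.9 RPKM, 106.8 RPKM, 145.4 RPKM, 538.2 RPKM and 112.8 RPKM in the order of age. Day 12 stood alone, and the other 4 ages, in the order day 6, day 16, day 3, day 9, had neighbouring ratios whose intervals all included equality. Day 12 was 4.24-fold day 3 (3.30 to 5.51) and 3.70-fold day 9 (2.82 to 4.92), both called up-regulated. These intervals and calls take each read as independent, which the placement of the reads, given below, leaves unsure. Day 16 was called down-regulated against day 12, with a log2 ratio of -2.25 (-2.64 to -1.88). The study named this unigene for day 12 from the same libraries, so that the high value is a description.

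**Figure D1:**
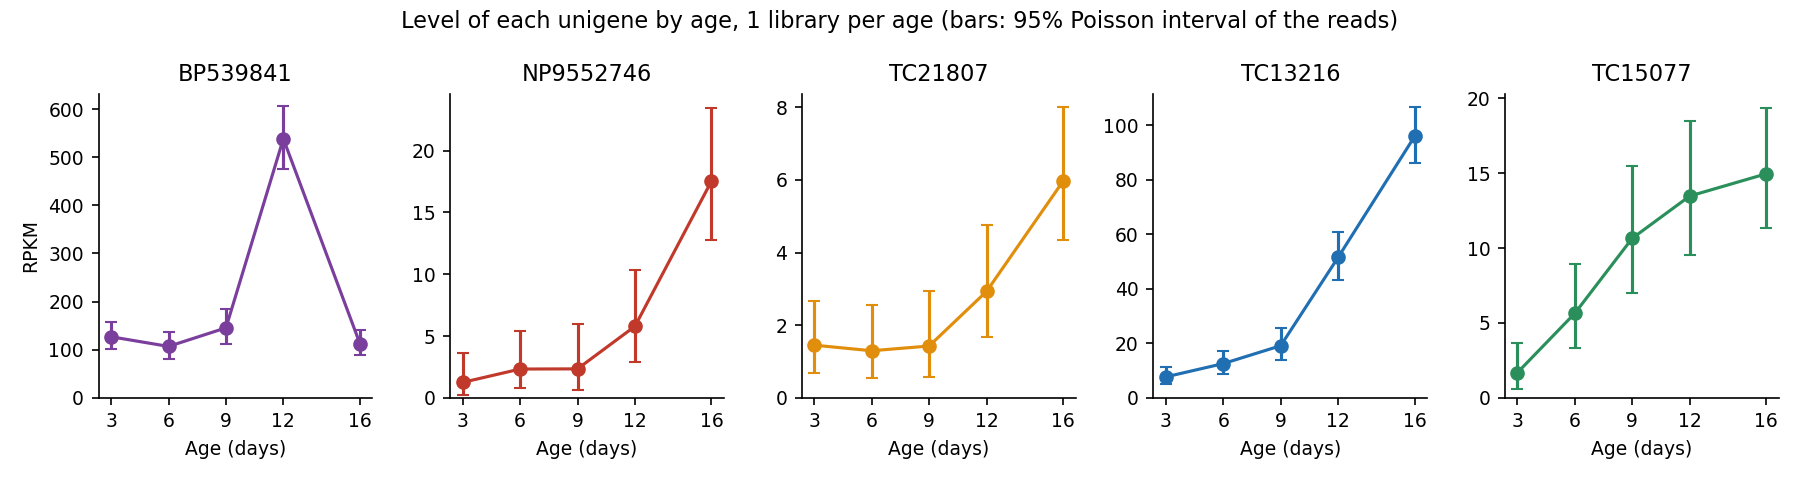
RPKM (vertical axis, a separate linear scale in each panel) against age in days for the 5 unigenes; each point is 1 library and bars are 95% Poisson intervals of its unique reads. The 4 GDH unigenes are highest on day 16, TC13216 at 96.0 RPKM, whereas BP539841 is at 538.2 RPKM on day 12 and between 106.8 and 145.4 RPKM on the other days.

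The identity of BP539841 could not be checked here. It is not in the deposited annotation, which is limited to 7628 unigenes whose day 3 level was below 10 RPKM, and the study's text gives the same identifier to a phospholipase as well. Its reads were also placed unusually. A single read covers 49 bases, as seen for 9912 of the 9925 cases of a unigene with 1 unique read. On day 12 the 272 reads of BP539841 covered 65 bases, or 17.3% of its length. The reads therefore lay in 1 stretch, since 2 separate stretches would cover at least 98 bases, with at most 17 start positions. The covered part was also 65 bases in the day 3 and day 6 libraries, 63 in that of day 9 and 112 in that of day 16. Among the 3422 unigenes with at least 50 reads on day 12, the median coverage was 70.9%, and 17 unigenes (0.497%) had a coverage as low as that of BP539841. Most of the 272 reads therefore shared a start position with another, and whether they are copies made by PCR was not tested. The intervals and calls of BP539841 count every read as independent, and they may be too narrow. Its RPKM divides by the full 376 bases, so its level is not comparable with those of the GDH unigenes.

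The GDH unigenes were covered more evenly. TC13216 had 44.9% of its length covered on day 3 and 97.8% on day 16, where 1948 bases held reads. NP9552746 went from 10.2% to 79.5%, TC15077 from 12.2% to 57.0% and TC21807 from 8.56% to 33.3%. The covered part was largest on day 16 in all 4, although it did not follow the reads at every step: TC13216 had 58.5% covered by 38 reads on day 6 and 57.5% by 46 reads on day 9, and TC21807 had 8.83% with 8 reads and 8.56% with 10.

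**Figure D2:**
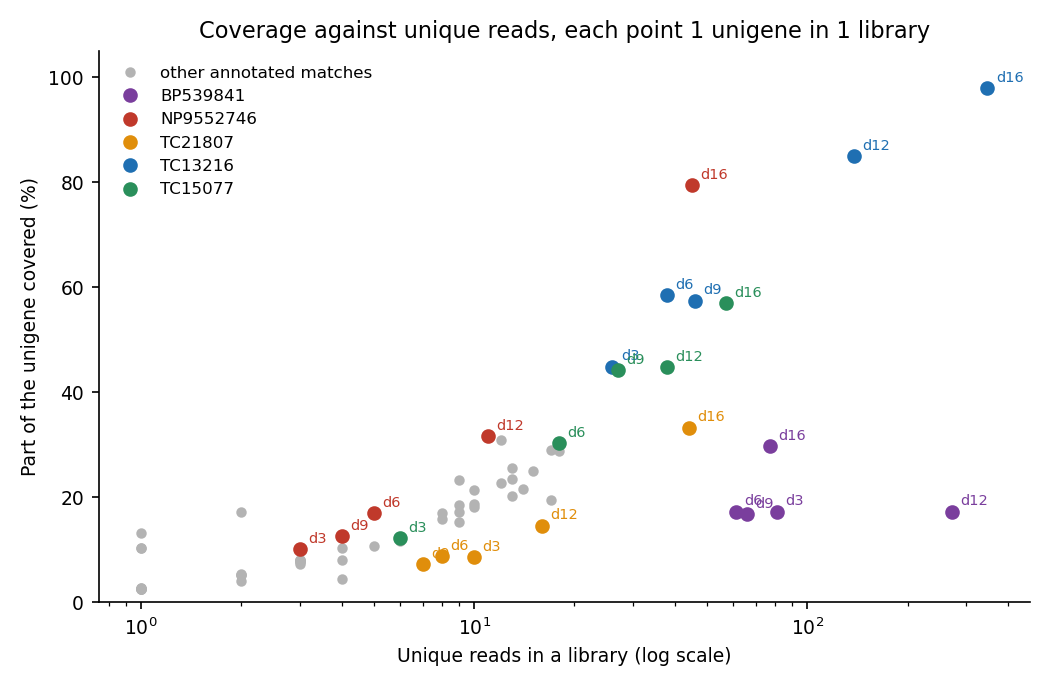
Part of the unigene covered by unique reads (%, vertical axis) against unique reads in a library (log scale); each point is 1 unigene in 1 library, labelled with its day for the 5 unigenes, and grey points are the other annotated glucose dehydrogenase matches. The GDH unigenes have their largest coverage on day 16, 97.8% in TC13216, whereas it is 17.3% in BP539841 on day 12 with 272 reads.

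Within a library the GDH unigenes can be set side by side per length. On day 3 TC13216 had 4.57 times the RPKM of TC15077 (1.84 to 13.6). On day 9 it had 1.80 times (1.09 to 3.00), and on day 16 it had 6.42 times (4.84 to 8.65). On day 16 NP9552746 and TC15077 could not be ordered, the ratio of TC15077 to NP9552746 being 0.85 (0.57 to 1.29), whereas on day 9 TC15077 was at 4.54 times NP9552746 (1.58 to 17.9). The order on day 16 was thus TC13216, then NP9552746 with TC15077, then TC21807, which NP9552746 exceeded 2.94-fold (1.90 to 4.56). The shape of the course over the 5 libraries was most alike in NP9552746 and TC13216, with a root mean square difference of 0.30 on the log2 scale after each was centred on its own mean, and least alike between BP539841 and NP9552746 (1.43).

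The calls of the 5 unigenes were counted beside the share of all unigenes called in the same comparison, and both were larger at the later ages against day 3. For day 6 against day 3 none of the 5 was called (1 had an unadjusted p under 0.05 in the test of Audic and Claverie and 1 in the edgeR exact test with an assumed variation between pools), where 0.574% of all 19349 unigenes tested were called up-regulated. On day 9 against day 3 it was TC15077 alone, beside 1.27% of all unigenes called up-regulated. On day 12 against day 3 the 3 called were BP539841, TC13216 and TC15077 (1.8% of all unigenes). On day 16 against day 3 the 4 GDH unigenes were called (2.51% of all unigenes). These comparisons share the day 3 library. On day 12 against day 9, BP539841 and TC13216 were called up-regulated (0.788% of all), and on day 16 against day 9, NP9552746 and TC13216 (1.54%). On day 16 against day 12, BP539841 was the only call, and 0.748% of all unigenes were called down-regulated. With day 6 as the base, chosen after the data were seen, BP539841 and TC13216 were called up-regulated on day 12 (1.19%) and NP9552746, TC21807 and TC13216 on day 16 (1.92%). Annotated unigenes were low on day 3 by the way the annotation was made, and among the 1217 of them with at least 50 reads in all, 183 (15.04%) were called up-regulated on day 16 against day 3. The GDH unigenes are among these.

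The calls above take no spread between pools into account. With an assumed coefficient of variation of 0.2 between pools in the edgeR exact test, TC21807 on day 16 against day 3 had an FDR of 0.0214 (range over the alternatives 3.77e-07 to 0.0214), and TC13216 on day 12 against day 9 had 0.344 (1.31e-10 to 0.344). BP539841 on day 12 against day 9 (FDR 0.0234), NP9552746 on day 16 against day 9 (0.0286), and TC15077 on day 9 and day 12 against day 3 (0.0345 and 0.00114) were not called either in that edgeR test.

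**Figure D3:**
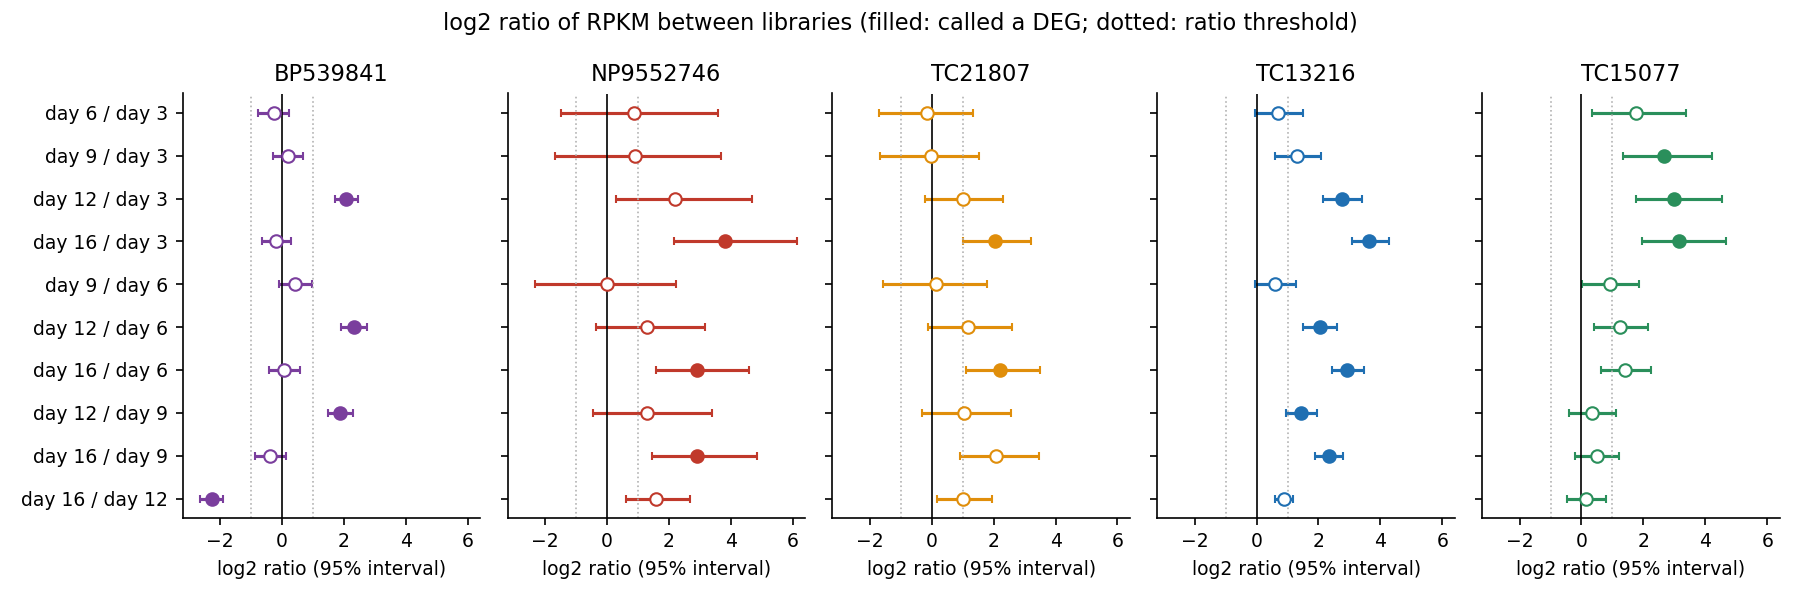
log2 ratio of RPKM (horizontal axis) between pairs of libraries (rows) for the 5 unigenes; bars are 95% exact intervals of counting error, filled points are DEGs and dotted lines mark the ratio threshold. TC13216 has filled points in every comparison of day 12 or day 16 with an earlier library up to day 9, and BP539841 only in the comparisons that include day 12.

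The annotation held 16 unigenes that matched the search words for the GMC family, and all 16 had glucose dehydrogenase as their best match. The 12 that are not described above took 57.7 RPM on day 3 (unique reads scaled to the library's total as in RPKM but not to length, interval 46.9 to 70.3), then 34.9, 33.1 and 35.7, and 40.2 at the last age (31.5 to 50.6). The 4 GDH unigenes together went from 26.5 RPM on day 3 (19.3 to 35.5) through 45.4, 69.6 and 151.0 to 271.5 on day 16 (248.1 to 296.6). The sum of the 4 on day 16 was therefore 10.2-fold that of day 3 (7.54 to 14.2). The 4 are from the same annotation, low on day 3 by the way it was made, and were picked with their values known. This fold therefore describes these 4 only, and its interval leaves that choice out. Most of the sum was TC13216, with 26 of the 45 reads on day 3 and 347 of the 493 on day 16. No fold is given for the sum of the 12, since every annotated unigene has at least 1 read on day 3 and those known from that library alone add to its sum. None of the 12 was called in either direction in any of the 4 comparisons with day 3. Of all annotated unigenes, 0.328%, 0.97%, 1.59% and 2.61% were called up-regulated on days 6, 9, 12 and 16. With shares this small, the lack of a call among 12 says little about them. On day 16 the Audic and Claverie test gave 2 of the 12, both lower, an unadjusted p under 0.05. The edgeR exact test with assumed variation gave 0 on that day. On each of the other days the Audic and Claverie test gave 1, again lower. The 4 were picked with these values known, so that the contrast between the sums is a description.

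The most read of the 12 was NP9553633, with 26, 17, 9, 13 and 13 reads from day 3 to day 16. NP9553861 had 18, 6, 3, 5 and 8 reads in the same order. TC17768 had 17, 8, 9, 15 and 14 reads and NP9553866 had 12, 9, 10, 9 and 13. In RPKM, NP9553633 and NP9553861 were highest on day 3 (7.61 and 5.57). TC17768 was at 5.34 RPKM on day 12 and 4.79 on day 3, which could not be ordered (log2 ratio 0.16, -0.95 to 1.25). The counts of NP9553866 were nearly level. NP9553865 had 10 reads on day 3 and 12 on day 16, with 2 on day 12, and NP9553985 had between 1 and 4 reads per library. The remaining 6 (TC13039, NP9553957, NP9553862, NP9552745, NP9552744 and DB731775) had at most 8 reads over the 5 libraries, too few for any course to be seen. DB731775 shares its best match with TC21807, and NP9553957 shares its own with TC13216 and TC15077. Reads that match more than 1 of these similar sequences were not counted, so levels among close relatives are uncertain.

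**Figure D4:**
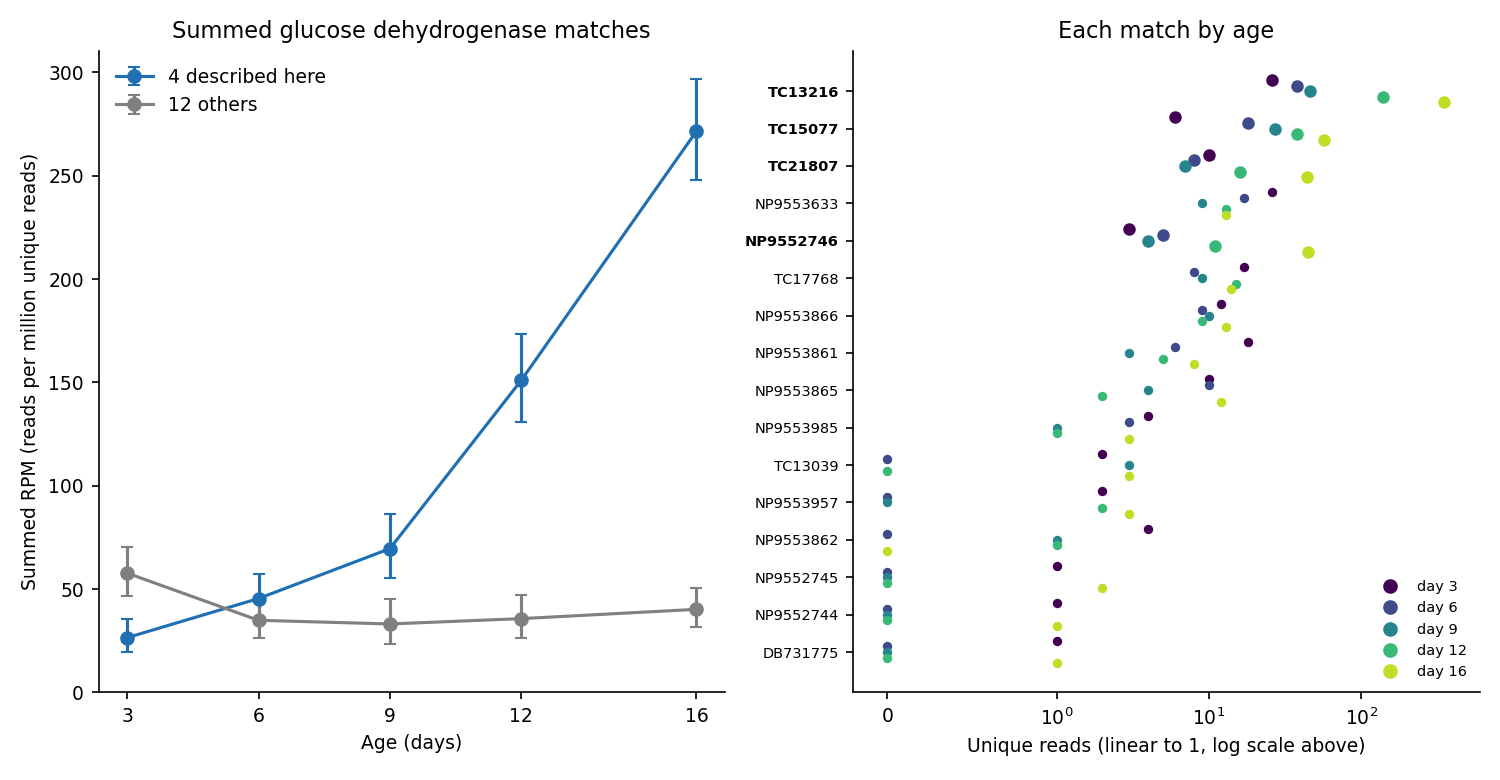
Left, summed RPM against age for the 4 GDH unigenes described here and the 12 other annotated glucose dehydrogenase matches (bars: 95% Poisson intervals). Right, unique reads of each of the 16 by library (linear to 1, log scale above; bold: the 4; points of different days are shifted vertically). The 4 reach 271.5 RPM on day 16, where the 12 are at 40.2.

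The enzymes that stand next to glucose oxidation were described with 4 lists of search words for the annotation, so that they, too, hold only unigenes with a low level on day 3. In the gluconate and pentose phosphate list, 3 of 8 unigenes were called up-regulated on day 16 against day 3 and none down-regulated, beside 199 of 7628 (2.61%) of all annotated unigenes and 15.04% of those with at least 50 reads. Its median log2 ratio was 0.76 over the 7 unigenes with at least 10 reads, beside -0.09 over 4699 annotated unigenes. The interval of that median over the unigenes was -1.85 to 2.51, so the 2 medians could not be told apart. TC17182 and BI507270, which have no best match, came in through their descriptions. So did DB755424, whose best match is a subunit of a Golgi complex. TC14658 matches glucose-6-phosphate dehydrogenase, the entry enzyme of the pentose phosphate pathway, with 23, 37, 49, 65 and 142 reads from day 3 to day 16. It was called up-regulated against day 3 in all of the last 3 libraries, with log2 ratios of 1.58, 1.84 and 2.53 (interval of the last 1.89 to 3.23). TC15603 and TC17576 match transketolase, which works further down this pathway. TC15603 had 35 reads on day 3 and 90 on day 16 (log2 ratio 1.27), and TC17576 had 8 and 38 (2.15), both called on day 16. With the assumed variation only TC14658 on day 16 was still called in this list.

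In the list of enzymes that make or remove hydrogen peroxide, 1 of 29 unigenes was called up-regulated on day 16 against day 3. None was called down-regulated, and the share called is near the 2.61% of all annotated unigenes. The median log2 ratio was 0.18 over 21 unigenes (interval -0.57 to 0.48), beside -0.09 over 4699 annotated unigenes. The call was TC14537, a match of dual oxidase maturation factor, which helps the peroxide-making dual oxidase to the cell surface. Its reads numbered 12, 4, 11, 9 and 43 from day 3 to day 16 (log2 ratio 1.74 on day 16, 0.80 to 2.80), and it was not called with the assumed variation. The dual oxidase match itself, NP9551631, named after its values were seen, had 30, 19, 10, 6 and 22 reads and log2 ratios of -1.98 on day 12 and -0.54 on day 16, neither called. The most read of the list were TC23145 (peroxidasin, a peroxidase of the extracellular matrix), TC13703 (a protein with a glutaredoxin domain) and TC13269, and none of these 3 was called. TC13269 came in through a thioredoxin description, whereas its best match is an enzyme of glycolipid anchor synthesis. With TMM scaling the list's median was 0.64, beside 0.36 over the annotated unigenes.

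Among 5 enzymes that split sugars to glucose, 1 was called up-regulated on day 16 against day 3 and none down-regulated. Of all annotated unigenes 2.61% were called up-regulated in that comparison, and of those with at least 50 reads 15.04%. NP9553382, a match of trehalase, which splits the blood sugar trehalose into glucose, was read 14, 18, 10, 16 and 52 times from day 3 to day 16 (log2 ratio 1.80, 0.92 to 2.76). This call, too, was lost with the assumed variation. TC12359 (alpha-glucosidase) had 5 reads on day 3 and 13 on day 16, and NP9553711 (a maltase match) had 9 and 2. The median of the list was -0.20 over 4 unigenes (interval -2.10 to 1.77), beside -0.09 over 4699 annotated unigenes. Of 19 unigenes for sugar transport and glycolysis, none was called on day 16 against day 3, although 6 had an unadjusted p under 0.05 in the Audic and Claverie test, 3 in each direction, and 3 in the edgeR exact test with assumed variation. With the shares given above, the lack of a call among 19 says little about them. Their median log2 ratio was 0.44 over 15 unigenes (interval -0.48 to 0.96), beside the same -0.09 over annotated unigenes. The most read were the transporters TC19451 (27, 47, 30, 42 and 43 reads in the order of age), TC17906, a trehalose transporter (32, 24, 23, 20 and 67), and NP9553822 (27, 25, 16, 24 and 44).

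The annotated unigenes with the course most like each of the 5 were found among 1139 named unigenes with at least 50 reads, by the root mean square difference of the centred log2 RPKM over the 5 libraries. For TC15077 the nearest was NP9550065, a match of myosin light chain kinase, at 0.0785, with 6.55, 18.8, 41.1, 47.6 and 56.0 RPKM in the order of age. Next came TC13924, a second myosin light chain kinase match, and TC16485, a predicted protein. For TC13216 those near it included TC19658 (0.18), a cytochrome P450 match, and TC18616 (0.23), described as similar to myofilin, a protein of the insect thick filament. For NP9552746 they included TC15058 (0.18), a UDP-glucuronosyltransferase match, and TC12662 (0.25), an F-box protein match. For TC21807 they were TC20045 (0.16), a fatty acyl-CoA reductase match, TC20123 (0.18), a desaturase match, and NP9552544 (0.20), a match of a myogenic transcription factor. The median difference over the candidates lay between 0.94 and 1.42 for these 4. BP539841, at 126.9 RPKM on day 3, could be set only beside candidates below 10 RPKM on that day. The nearest of these was TC16023, a mitochondrial ribosome-recycling factor match, at 0.43 beside a median of 1.07. TC16023 had only 12, 9, 9, 20 and 13 reads, so whether BP539841 has a closer neighbour was not tested.

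Some of the marker lists of other tissues of the head rose with age too, and others did not. The 28 annotated muscle unigenes summed to 114.9, 248.9, 350.3, 456.1 and 641.1 RPM from day 3 to day 16. On day 16 against day 3, 12 of them were called up-regulated and none down-regulated. The share called up-regulated was 2.61% of all annotated unigenes and 15.04% of those with at least 50 reads. In the other lists 4 antenna and photoreceptor, 2 neuron, 1 cuticle and 1 royal jelly protein unigene were called up-regulated. None of the haemocyte or fat body unigenes was called. Every marker list here holds only annotated unigenes, which had at least 1 read and under 10 RPKM on day 3. That choice bears on any ratio to day 3, and no fold is given for the sums. The 33 antenna and photoreceptor unigenes summed to 70.1, 84.9, 72.9, 149.5 and 283.1 RPM in the order of age. On day 16, 11 of the 33 had no read. TC12570, an odorant binding protein, held 244 of their 514 reads on day 16, and the other 32 went from 66.0 to 148.7 RPM. Without titin (NP9553226), the other 27 muscle unigenes held 97.8, 221.9, 256.7, 405.5 and 395.5 RPM, youngest library first. Titin itself had 68 reads in the day 12 library and 446 in the oldest. The gain of the muscle sum after day 12 was therefore titin's, and the rest of that list did not rise then. The 19 cuticle unigenes went from 67.7 to 114.0 RPM, of which TC15457, a flexible cuticle protein match, held 156 of 207 reads on day 16 and 5 of 115 on day 3, and the other 18 went from 64.8 down to 28.1 RPM. The 2 haemocyte unigenes went from 56.0 to 104.6 RPM, nearly all of it hemocytin (TC15331). The 31 neuron unigenes stayed between 135.0 and 168.0, and the 10 fat body unigenes between 19.3 and 34.8. The gland's own list, the 32 annotated royal jelly protein unigenes, went from 73.6 to 380.0 and leaves out the abundant ones. Of its 690 reads on day 16, 525 were of TC12355, a royal jelly protein 9. The other 31 rose from 71.9 RPM on day 3 through 120.5 to 278.3 on day 9. They then fell to 196.4 on day 12 and 90.9 on day 16. The part of these tissues in the levels of the GDH unigenes was not tested.

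**Figure D5:**
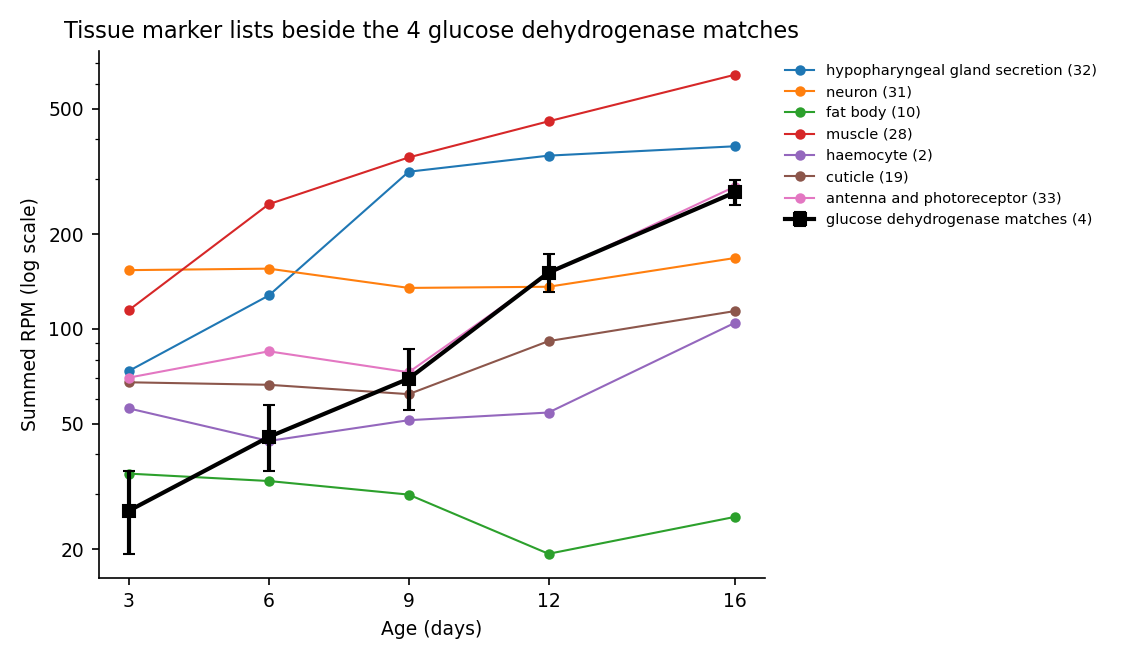
Summed RPM (log scale) against age for 7 lists of tissue markers, with the number of unigenes in parentheses, and for the 4 GDH unigenes (black squares, 95% Poisson intervals). The muscle list goes from 114.9 on day 3 to 641.1 on day 16 and the 4 GDH unigenes from 26.5 to 271.5, while the neuron list stays between 135.0 and 168.0.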

How the data were processed

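RNA from HGs of 30 pooled bees per age was enriched for mRNA and sequenced on an Illumina instrument. Clean reads were mapped by the authors with SOAP2 (version not given in the sources used here) against the honey bee unigene set of the DFCI index, with up to 2 mismatches. The authors deposited for each library the count of unique reads per unigene, the RPKM made from it with the unigene length and the library's total, and the coverage as a fraction of the unigene's length (printed in percent). Unique reads totalled 1697792, 1518649, 1207515, 1344138 and 1815654 from day 3 to day 16. The count served for tests and intervals. A count of 0 allows up to 3 reads.

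Samples were grouped by the age in their labels. Audic and Claverie's test (two-sided, FDR by Benjamini and Hochberg) was run on every unigene with scipy 1.17.1 and Python 3.11.15, with the thresholds of the study's methods. Ratios have 95% Clopper-Pearson intervals and levels exact Poisson intervals. The test was tried on simulated libraries. Alternatives were TMM and an exact test with an assumed variation (edgeR 4.0.16, R 4.3.3), a total without the 16 unigenes that were among the 10 most abundant of a library, a filter of 10 reads, a binomial test, and pseudocounts of 0.1 and 1 RPKM. Day 6 as the base was added after seeing the data.

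Lists are search words matched at the start of a word in the annotation's names. That they count only at the start of a word was decided after the values were seen. List medians use log2 of RPKM plus 0.1 and unigenes with at least 10 reads over the 5 libraries. The 5 unigenes and the lists were chosen with earlier results of these data known. Named were all 5, every GMC match, the 3 most read and the called unigenes of each other list, and the 3 nearest in course, apart from an item that is not reported here. No genome coordinates or sequences are given, since reads were matched to unigenes and none of the 5 matched the RefSeq gene table used (0 of 5).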

Additional observations from a re-analysis of the deposited data

How the results depend on the processing

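With 1 library per age, no replicate could be left out. No paired analysis was possible because each age has 1 library and no replicate numbers are shared. Of the 7 counts of called unigenes, those for days 6, 12 and 16 against day 3 and day 16 against day 12 stayed within 1.5 times under every alternative run. For day 9 against day 3 the count of 1 became 2 with TMM scaling and 2 with the total without the most abundant unigenes, where TC13216 was added, and 0 with the assumed coefficient of variation of 0.2 and 0 with day 6 as the base. With the assumed variation, day 12 against day 9 went from 2 to 0 and day 16 against day 9 from 2 to 1 (TC13216). The binomial test and the filter of 10 reads changed none of the 7 counts. The direction changed for uncalled ratios only: BP539841 on day 16 against day 3 went from -0.17 to 0.30 with TMM, 0.12 without the most abundant unigenes and 0.078 against day 6, and TC21807 on day 9 against day 3 went from -0.02 to 0.38, 0.30 and 0.14 under the same settings. TC21807 on day 16 against day 9 was called with TMM (log2 ratio 2.13). Over all 5 unigenes, 240 of 258 recomputed ratios kept direction and call, 9 lost the call, 3 gained it and 6 changed direction. Of 200 recomputed counts of calls in the lists, 15 moved. Counts of 3 to 10 reads on day 3 limit the ratios of NP9552746, TC15077 and TC21807 most.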
